A study of Drosophila melanogaster with 3 samples.

Results

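Genes for translation initiation factors and tRNA synthetases were examined for binding of Spalt-related, the zinc-finger transcription factor encoded by salr, in whole Drosophila melanogaster prepupae. They were taken from the Ensembl annotation as the protein-coding genes whose symbol begins with eIF, or is a 3-letter amino acid code followed by RS with or without the suffix -m. That rule gave 76 of 13945 protein-coding genes on the 6 major arms, of which 44 were initiation factors and 32 were synthetases. Chromatin came from 1 group, salr-GFP: prepupae of both sexes pooled, of unknown age within the stage, from a transgenic line with GFP fused to the C-terminus of Salr. It was sonicated to 200 to 800 bp and recovered with an antibody to GFP, and the labels give 3 biological replicates of 1 library each. No second condition was analysed here, so the genes are set against all protein-coding genes and described without a test of a contrast. Whole animals were used, so binding in a few tissues and weak binding in many cannot be told apart.

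Translation of most mRNAs starts when eIF4E, eIF4G and the helicase eIF4A prepare the capped end for the small ribosomal subunit. That subunit carries eIF1, eIF1A, the many-subunit scaffold eIF3 and the initiator tRNA bound to eIF2. eIF2B reloads eIF2 with GTP, eIF5 triggers GTP hydrolysis at the start codon, and eIF5B then joins the large subunit, from which eIF6 must first be released. Each aminoacyl-tRNA synthetase charges tRNA with its amino acid, and -m marks synthetases assigned to mitochondria. Most of these genes are expressed in nearly all cells. Salr and its paralogue Spalt major are best known for patterning the wing, the tracheae and sense organs, so translation genes are not textbook targets.

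A gene counts as bound if the annotation puts at least 1 of its start sites 500 bp or less from a peak summit. The main list was the IDR list, named for a threshold on how well ranks agree between replicates. Its 6485 peaks are the top of the pooled list, made from all 3 replicates, by signal value. A single IDR peak need not be found in every replicate. Of the genes bound in the IDR list, 7 with no annotated exon in the window are shown here. Each is given by the 101 bases centred on the IDR summit, because the letters show how unlike one another these sites were. IleRS and ThrRS, chosen after their values were seen, are centred on the replicate 3 summit, since the IDR list held no peak there. Each run is dm6 sequence from the RefSeq Release 6 genome, written 5′ to 3′ on the strand of the gene, and the run of eIF3h lies in its intron. Capitals mark matches to the words searched on both strands, which in these windows were TATAAA, written TTTATA on the other strand, and AATATT.
eIF4EHP (chr3R:24109153-24109253, minus strand): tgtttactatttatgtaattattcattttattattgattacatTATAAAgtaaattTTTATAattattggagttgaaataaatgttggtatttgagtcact
eIF1 (chr3L:3223231-3223331, plus strand): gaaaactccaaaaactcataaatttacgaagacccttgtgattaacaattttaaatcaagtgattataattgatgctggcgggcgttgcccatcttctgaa
eIF4H1 (chrX:16448969-16449069, plus strand): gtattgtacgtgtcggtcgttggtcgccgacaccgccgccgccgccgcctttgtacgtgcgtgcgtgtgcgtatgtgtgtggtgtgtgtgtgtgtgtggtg
eIF4G1 (chr4:930885-930985, minus strand): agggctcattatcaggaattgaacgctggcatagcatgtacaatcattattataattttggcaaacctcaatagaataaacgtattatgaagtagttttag
eIF3h (chr2L:5052426-5052526, minus strand): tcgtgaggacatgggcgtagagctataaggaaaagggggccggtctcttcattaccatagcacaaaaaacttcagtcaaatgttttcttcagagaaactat
GlyRS (chr3L:15094854-15094954, plus strand): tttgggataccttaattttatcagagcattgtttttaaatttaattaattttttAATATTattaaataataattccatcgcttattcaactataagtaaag
ArgRS-m (chr3R:7886869-7886969, plus strand): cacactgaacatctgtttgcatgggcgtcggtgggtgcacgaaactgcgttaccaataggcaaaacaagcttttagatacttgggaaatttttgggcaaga
IleRS (chr3L:22288419-22288519, plus strand): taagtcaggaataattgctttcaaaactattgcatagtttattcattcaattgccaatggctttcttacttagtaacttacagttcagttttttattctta
ThrRS (chr2L:12103544-12103644, plus strand): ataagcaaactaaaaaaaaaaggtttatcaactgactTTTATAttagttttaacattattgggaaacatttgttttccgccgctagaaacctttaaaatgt
The G and C content of the runs reached 62.4% at eIF4H1, against 17.8% at eIF4EHP and 18.8% at GlyRS. The eIF4EHP run held TATAAA and its reverse complement, the ThrRS run held the reverse complement once, and the GlyRS run held AATATT. None of the words searched on both strands occurred in the other 6 runs.

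Salr-GFP peaks lay at 12 of the 76 genes (15.8%), against 1747 of all protein-coding genes, a background of 12.5%. Initiation factors made up 8 of the 12 (18.2% of 44) and synthetases 4 (12.5% of 32). These shares are near the background and are no finding about the class. Among synthetases, 3 of 17 without the suffix -m (17.6%) and 1 of 15 with it (6.67%) were bound. Genes for cytoplasmic ribosomal proteins were bound in 27 of 92 cases (29.3%) and those for mitochondrial ribosomal proteins in 16 of 73 (21.9%). With the 3242 strongest peaks the share was 9.21% for the 76 genes, against 8.7% for cytoplasmic and 15.1% for mitochondrial ribosomal proteins, and with the 1000 strongest it was 3.95%, against 0% and 9.59%. All protein-coding genes stood at 8.28% and 3.59% with these cuts, near the 76 genes. The excess of cytoplasmic ribosomal proteins over the 76 genes was thus not seen among the stronger peaks. These shares rest on few genes, 7 against 8 and 3 against 0, and no difference between these sets was tested.

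Across replicates the picture was similar, with the spread of the libraries. Among the 6485 best-ranked entries of each replicate list, 10, 12 and 15 of the 76 genes had a summit in replicates 1, 2 and 3, against 12.3%, 15.2% and 15.1% of all protein-coding genes. The mean share was 16.2% ± 3.31 for the 76 genes and 14.2% ± 1.65 for all genes (SD, n = 3). Among these best-ranked entries the 76 genes were above all genes in each replicate, at 13.2%, 15.8% and 19.7% in replicates 1, 2 and 3. Both shares come from the same libraries, and their difference was not tested. Initiation factors averaged 15.2% ± 2.62 (SD, n = 3), with 6, 6 and 8 genes. Synthetases without the suffix averaged 29.4% ± 10.2, with 3, 6 and 6 of 17 genes, and those with it 4.44% ± 3.85, with 1, 0 and 1 of 15 (SD, n = 3). Replicate 1 thus had fewer synthetases without the suffix than the other 2 libraries, and the same held for cytoplasmic ribosomal proteins, with 19, 36 and 35 of 92 genes. All 30000 entries of a replicate list, which include background, touched 16, 26 and 23 of the 76 genes (21.1%, 34.2% and 30.3%). The shares of all genes were 26%, 31.7% and 31.1%, so with all entries the 76 genes were below all genes in replicates 1 and 3.

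**Figure D1:**
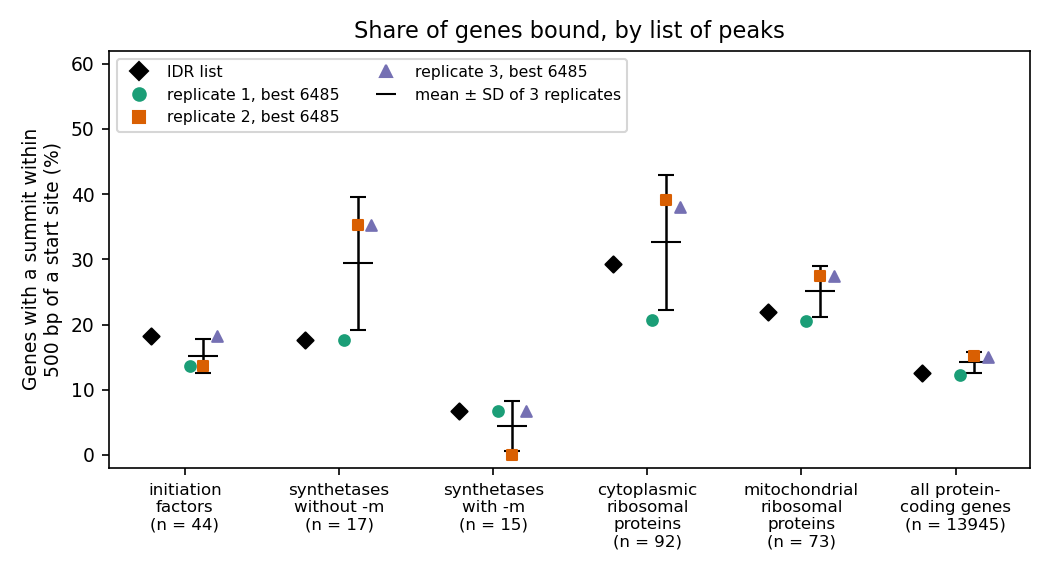
Share of genes in each set with a summit within 500 bp of a start site (vertical axis, %) in the IDR list (diamonds) and among the 6485 best-ranked entries of replicates 1, 2 and 3 (circles, squares, triangles), with the mean ± SD of the 3 replicates as bars. In the IDR list, initiation factors stood at 18.2% and synthetases without -m at 17.6%, against 12.5% of all protein-coding genes. Over the replicates, synthetases without -m spread most among the synthetase and initiation factor sets, with an SD of 10.2 percentage points.

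Of the cap-binding and mRNA-preparing eIF4 genes, 3 of 13 were bound, against 12.5% of all protein-coding genes. Counts by step of initiation, here and below, are small and are no finding about a step. The strongest peak of all 76 genes was at eIF4EHP (FBgn0053100, 3R 24063077 to 24108960, minus strand), which encodes a cap-binding protein that represses rather than promotes translation. Its signal value, the authors' own score for a peak, was 1116, with the summit 243 bp upstream of the start site, and it ranked 42 among the IDR peaks. In replicates 1, 2 and 3 the summit at this promoter ranked 55, 26 and 49, with signal values of 461, 389 and 266. It therefore stood near the top of every library, and signal values are compared only within a list because their scale is not stated. The divergent gene CG18428 starts 133 bp from the same summit, closer than eIF4EHP does. The long eIF4EHP span held 3 further IDR summits in its introns, at 24073911, 24099150 and 24106397 on 3R, with signal values of 127, 246 and 176.

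At eIF4H1 (FBgn0262734, X 16448665 to 16454972, plus strand), which encodes an RNA-binding partner of the eIF4A helicase, the IDR signal value was 216. The summit lay in an intron, 133 bp upstream of the second annotated start site. Replicates 1, 2 and 3 ranked it 1989, 6885 and 2464, so replicate 2 placed it outside its best 6485. eIF4G1 (FBgn0023213, chromosome 4 915297 to 930715, minus strand) encodes the scaffold that joins cap-binding protein, helicase and ribosome. It was the weakest bound gene, with a signal value of 122, against a lowest value of 116 in the IDR list. Its summit, 220 bp upstream, ranked 8097, 7674 and 7498 in replicates 1, 2 and 3. All 3 replicates agreed on this middling rank, and none placed it among the best 6485.

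Other eIF4 genes stayed outside the IDR list. The helicase gene eIF4A had a summit in all 3 replicate lists, ranked 13963, 8286 and 10716, and a pooled peak of signal value 76.5 at rank 11020. The eIF4G2 summits ranked 19445, 16146 and 12534, with no pooled summit in the window. A single or paired low-ranked replicate entry was found at eIF4B, eIF4E5 and eIF4E7, while eIF4E1, eIF4E3, eIF4E4, eIF4E6 and eIF4H2 had no summit in any replicate list. The main cap-binding protein of the fly, eIF4E1, thus had no entry at its promoter, like 59.6% of all protein-coding genes. Its relative eIF4EHP had the strongest peak of the class, but CG18428 starts closer to that summit. Nothing is read from the contrast between eIF4E1 and eIF4EHP.

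**Figure D2:**
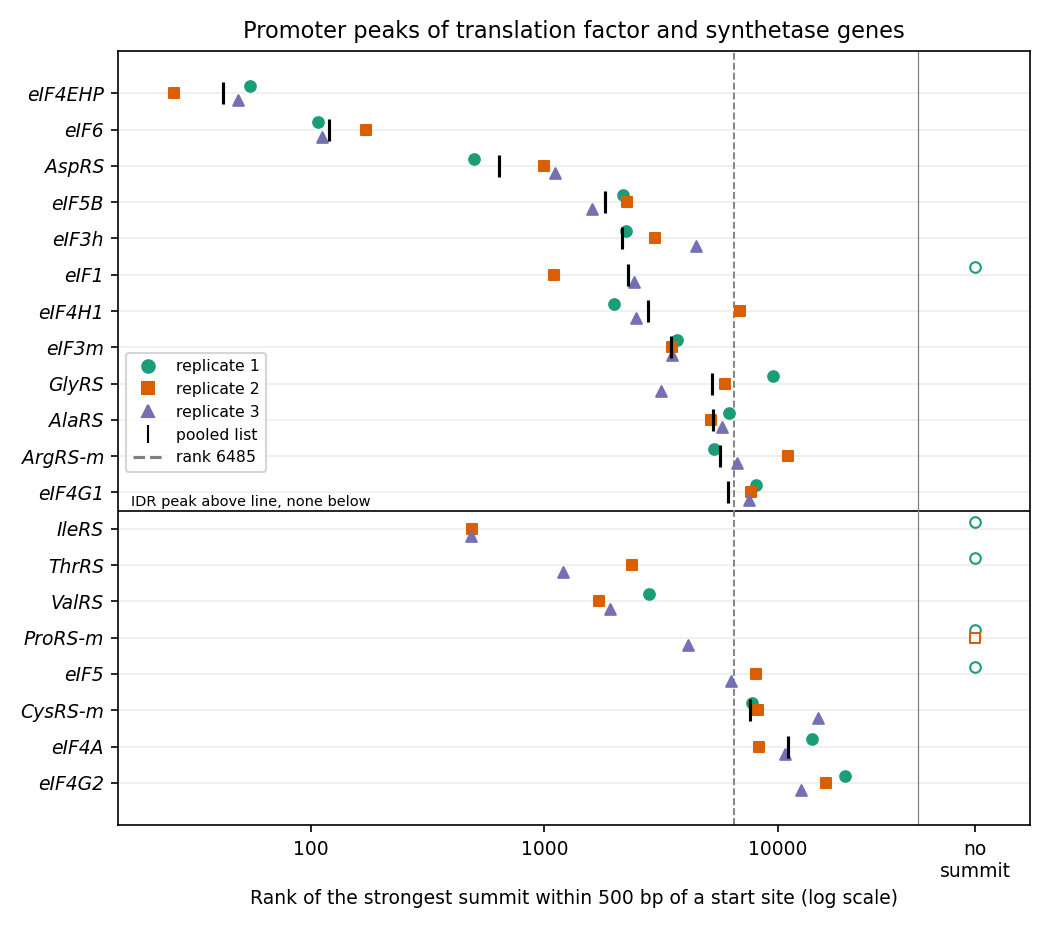
Rank of the strongest summit within 500 bp of a start site in each replicate (horizontal axis, logarithmic, rank 1 strongest) for the bound genes and for ValRS, IleRS, ThrRS and other unbound genes with replicate summits, with the pooled rank as a black bar and rank 6485 as a dashed line. eIF4EHP and eIF6 ranked between 26 and 173 in every replicate, while eIF4G1 ranked between 7498 and 8097.

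Both genes of subunit joining were bound, a set of only 2 genes, against 12.5% of all protein-coding genes. eIF6 (FBgn0034915, 2R 23849246 to 23850301, minus strand), whose product keeps the large subunit from joining too early, had a signal value of 856 at IDR rank 120. Its summit lay 114 bp upstream and ranked 107, 173 and 112 in replicates 1, 2 and 3, with signal values of 400.1, 238 and 214. The start of the antisense RNA gene asRNA:CR45928 was 85 bp from the summit, which fell in an exon of that gene. eIF5B (FBgn0026259, 3L 3428658 to 3460977, minus strand), the GTPase that joins the subunits, had a signal value of 279. Its summit fell in an eIF5B exon between both annotated start sites, 173 bp downstream of the outer one. It ranked 2173, 2256 and 1605 in replicates 1, 2 and 3, among the best 6485 each time. The eIF5B introns held 6 more IDR summits, with signal values between 122 and 179.

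Of the genes for start codon recognition, 1 of 3 was bound, against 12.5% of all protein-coding genes. eIF1 (FBgn0035423, 3L 3223341 to 3224650, plus strand), which guards the choice of start codon, had an IDR signal value of 243 with the summit 60 bp upstream. No summit was listed at the promoter in replicate 1. The summits within 100 bp of the IDR summit ranked 2080 and 2425 in replicates 2 and 3, with signal values of 83.2 and 58.3. Replicate 2 had a stronger summit, ranked 1098, farther upstream at 253 bp. The IDR peak therefore had no counterpart in the replicate 1 list. The divergent start of RpL28, a large-subunit ribosomal protein gene, lay 321 bp from the summit. eIF1A, the partner of eIF1 on the small subunit, had summits ranked 28680 and 20302 in replicates 1 and 2. eIF5, singled out after its values were seen, ranked 8033 and 6330 in replicates 2 and 3 and had no summit in replicate 1.

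The scaffold eIF3 was bound at 2 of 16 genes, against 12.5% of all protein-coding genes. eIF3h (FBgn0022023, 2L 5051193 to 5053094, minus strand) encodes a peripheral subunit, and its summit lay in an intron 304 bp downstream of an inner start site, with a signal value of 250.4. Replicates 1, 2 and 3 ranked it 2244, 2981 and 4466 and placed the summit 301, 305 and 307 bp downstream. Among the bound genes, only eIF5B had replicate positions as close together, at 192, 198 and 193 bp. The start of senju was 367 bp from the summit. eIF3m (FBgn0033902, 2R 14163066 to 14164825, minus strand), another peripheral subunit, had a signal value of 186, and the strongest promoter summits ranked 3719, 3526 and 3523 in replicates 1, 2 and 3. These lay 129 and 56 bp upstream in replicates 1 and 2 and 62 bp downstream in replicate 3, whose summit within 100 bp of the IDR summit ranked 7944. The divergent CG8323 starts 113 bp from the IDR summit, as far as eIF3m itself. No replicate list held a summit at 13 of the 16: eIF3a, eIF3b, eIF3c, eIF3d1, eIF3d2, eIF3e, eIF3f1, eIF3f2, eIF3g1, eIF3i, eIF3j, eIF3k and eIF3l. These include eIF3a, eIF3b and eIF3c, core subunits of the scaffold. Of all protein-coding genes, 59.6% had no summit in any replicate list, so nothing is read from these absences. eIF3g2 had low-ranked summits in replicates 2 and 3.

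The tRNA-delivering eIF2 (0 of 3), its exchange factor eIF2B (0 of 5) and the pair eIF2A and eIF2D (0 of 2) had no bound gene. With 12.5% of all protein-coding genes bound, nothing is read from a 0 in sets this small. No replicate summit was listed at eIF2alpha, eIF2gamma, eIF2Balpha, eIF2Bdelta, eIF2Bepsilon, eIF2Bgamma or eIF2D. One low-ranked entry each was found at eIF2beta in replicate 3, and at eIF2A and eIF2Bbeta in replicate 2. The promoter of eIF2Bbeta was the nearest miss in distance. An IDR summit ranked 12, with a signal value of 1549, lay 672 bp upstream of its start, so the 500 bp rule left it out, whereas eIF3h at 304 bp was the farthest kept. In all, 13 of the 64 unbound genes (20.3%) had an IDR summit in the gene or within 5 kb, against 30.1% of unbound protein-coding genes.

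Of the synthetases without the suffix, AspRS (FBgn0002069, 2R 12877004 to 12883168, plus strand), which charges aspartate tRNA, had the strongest peak. Its 2 IDR summits, with signal values of 469 and 257, lay 257 and 46 bp upstream of an internal start site at 12880284. The outermost start had none, and Nmda1 starts 203 and 8 bp from the 2 summits on the other strand. Summits within 100 bp of the stronger one ranked 502, 995 and 1708 in replicates 1, 2 and 3, and replicate 3 had another, ranked 1112, at 382 bp upstream. At AlaRS (FBgn0027094, 2L 8378262 to 8381764, minus strand) the signal value was 137, 187 bp upstream in an exon of CG13392, and replicates 1 and 2 ranked it 6173 and 5199, near the end of their best 6485. Replicate 3 had no summit within 100 bp of it, and its strongest summit at the promoter, ranked 5770, lay 66 bp upstream. GlyRS (FBgn0027088, 3L 15095142 to 15097686, plus strand) had a signal value of 138 at 238 bp upstream. Its strongest promoter summits ranked 9584, 5971 and 3161 in replicates 1, 2 and 3, and that of replicate 1 lay 31 bp upstream against 292 and 290 bp in replicates 2 and 3. Plp, which encodes a centrosome protein, and sstn start 180 and 185 bp from the IDR summit.

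**Figure D3:**
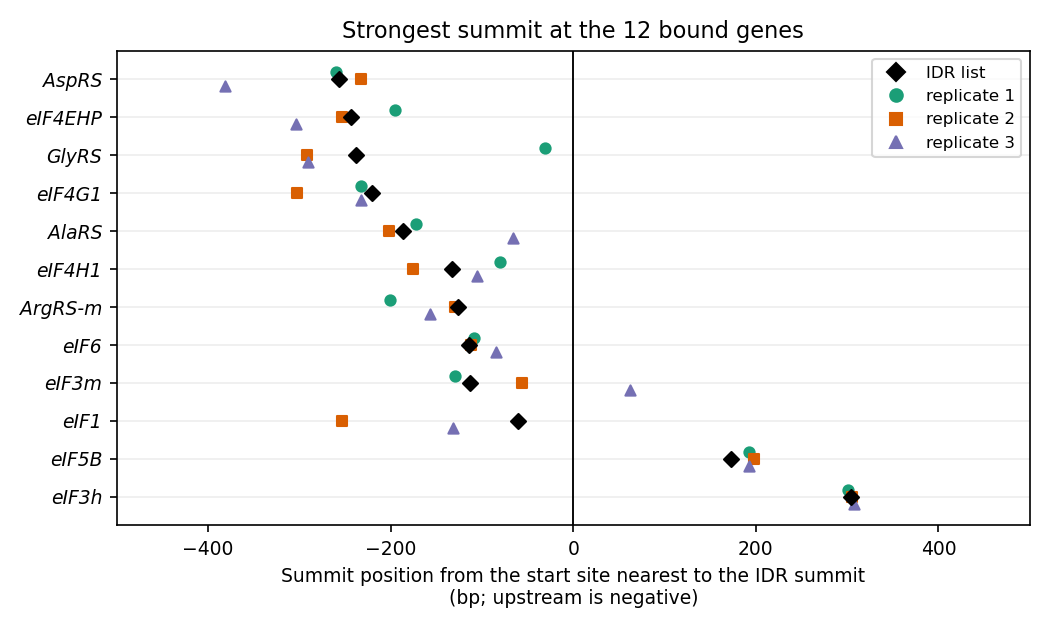
Position of the strongest summit at each of the 12 bound genes in the IDR list (black diamonds) and in replicates 1, 2 and 3 (circles, squares, triangles), in bp from the start site nearest to the IDR summit, with upstream negative. Replicate positions at eIF3h lay within 6 bp of one another, while at GlyRS they spread over 261 bp.

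Among synthetases with the suffix -m, only ArgRS-m of 15 was bound (FBgn0037526, 3R 7887045 to 7890150, plus strand). It charges arginine tRNA in mitochondria. The signal value was 129.5 and the summit lay 126 bp upstream, with CG17816 starting 186 bp away on the other strand. Replicates 1, 2 and 3 ranked it 5324, 11112 and 6712, so only replicate 1 had it among the best 6485. CysRS-m was the nearest miss in signal value, with a pooled peak of 103 at rank 7613 and replicate ranks of 7722, 8212 and 14803. ProRS-m had a summit in replicate 3, at rank 4131, a value singled out after it was seen. No replicate summit was listed at AlaRS-m, AsnRS-m, AspRS-m, GluRS-m, IleRS-m, LeuRS-m, MetRS-m, PheRS-m, SerRS-m, TrpRS-m, TyrRS-m or ValRS-m. Of the synthetases without the suffix, ArgRS, AsnRS, CysRS, GlnRS, HisRS, LeuRS, LysRS, MetRS, SerRS, TrpRS and TyrRS had none either. HisRS had an IDR peak of signal value 139 in its own exon, 790 bp downstream of the start. In all, 48 of the 76 genes (63.2%) had no summit in any replicate list, against 59.6% of protein-coding genes.

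ValRS, IleRS and ThrRS ranked high in at least 2 replicates and had no pooled summit within 500 bp of a start site. ValRS (FBgn0027079), which charges valine tRNA, ranked 2816, 1716 and 1914 in replicates 1, 2 and 3, with summits 177, 324 and 211 bp upstream. All 3 libraries thus had it among their best 6485, yet the nearest pooled summit lay 1605 bp away. IleRS (FBgn0027086, 3L 22288665 to 22292810), for isoleucine, ranked 489 and 485 in replicates 2 and 3 with signal values of 165 and 131, 187 and 196 bp upstream, and had no entry in replicate 1. ThrRS (FBgn0027081, 2L 12103751 to 12107170), for threonine, ranked 2367 and 1206 in replicates 2 and 3 and was missing from replicate 1. The nearest pooled summits were 11209 bp from IleRS and 9158 bp from ThrRS. Since the IDR list is the top of the pooled list, these genes could not be called bound in it. The sources used here do not say whether entries at start sites were removed from the pooled list, so an unbound call, and any share of bound genes, describes that list only. IleRS and ThrRS were picked out after their values were seen. Genes best-ranked in 2 or more replicates with no pooled summit in the window were 3 of the 76 (3.95%), all of them among the 32 synthetases (9.38%), against 243 of 13945 protein-coding genes (1.74%). The 3 synthetases are ValRS, IleRS and ThrRS themselves, so their share adds no separate support. It was 6 of 92 cytoplasmic (6.52%) and 3 of 73 mitochondrial ribosomal protein genes (4.11%), and 2 of 30 other translation genes (6.67%). The pattern was thus not particular to synthetases, the counts are small, and no difference was tested. Of the 500 best entries, 1, 7 and 5 in replicates 1, 2 and 3 lacked a pooled summit within 500 bp, and every one of them lay at a start site, against 55.2%, 55.2% and 57% of the 500. Of the 6485 best entries, 81, 321 and 320 lacked one, and 70.4%, 86% and 80.3% of these lay at a start site, against 30.1%, 33.6% and 33.8% of the 6485. Entries without a matching summit in another replicate were also found. Of the 6485 best in replicate 2, 341 had none in replicate 1 and 192 none in replicate 3. For replicate 3 there were 365 and 188 without one in replicates 1 and 2, and for replicate 1, 72 and 80 without one in replicates 2 and 3. Why entries lacked a pooled summit was not tested.

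Support for the bound genes was uneven. Of the 12, 7 had a best-ranked summit at the promoter in all 3 replicates (58.3%), against 74.4% of all bound genes. When an IDR peak had to have summits among the best 6485, at most 100 bp away, in both remaining replicates, 7, 6 and 7 genes (9.21%, 7.89% and 9.21%) stayed without replicates 1, 2 and 3, against 9.47%, 9.3% and 9.54% of all genes. eIF4EHP, eIF6, eIF5B, eIF3h and AspRS were kept each time. eIF4G1 and ArgRS-m were lost each time. The median signal value of the strongest peak was 229 over the 12 genes and 249.6 over all bound genes. Initiation factors had a median of 247 and synthetases one of 138.

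Other ways of drawing the line were set against their own backgrounds. A window of 250 bp kept 11 genes (14.5%), against 8.29% of all genes, and lost eIF3h. A window of 1000 bp took in 15 (19.7%), against 15.6%, and counting any summit in the gene or within 5 kb gave 25 (32.9%), against 38.8%. Overlap of the peak interval with the 500 bp window gave 13 (17.1%), against 14.1%, and the outermost start site alone gave 10 (13.2%), against 10.2%, without eIF3h and AspRS. The 3242 strongest IDR peaks marked 7 (9.21%), against 8.28%, and the 1000 strongest marked 3 (3.95%: eIF4EHP, eIF6 and AspRS), against 3.59%. All entries of the pooled list touched 18 (23.7%), against 26%. None of these differences was tested.

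**Figure D4:**
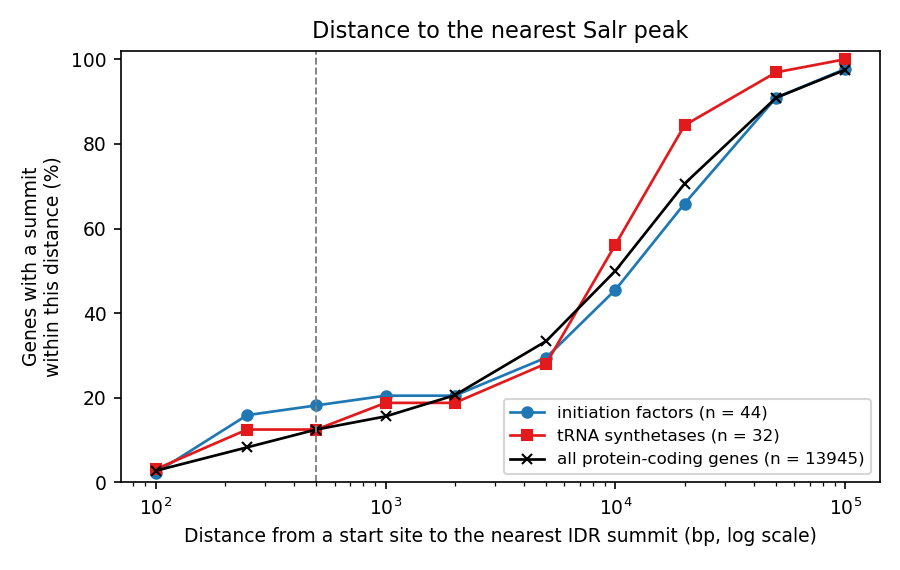
Cumulative share of genes (vertical axis, %) with an IDR summit within a given distance of a start site (horizontal axis, bp, logarithmic) for initiation factors, synthetases and all protein-coding genes. At 250 bp the shares were 15.9%, 12.5% and 8.29%, and at 5000 bp they were 29.5%, 28.1% and 33.4%.

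The bound genes had neighbours more often than not. A protein-coding gene on the other strand started within 500 bp of the outermost start in 38 of the 76 genes (50%), made up of 18 initiation factors (40.9%) and 20 synthetases (62.5%), against 27.3% of all protein-coding genes. Of the 12 bound genes, 9 had such a neighbour (75%), against 38.6% of all bound genes. Mitochondrial ribosomal protein genes had one in 72.6% of cases and 87.5% of bound cases, and cytoplasmic ones in 39.1% and 37%. Neighbours were thus not particular to the 76 genes. Among the 76, binding was found at 9 of the 38 with a neighbour (23.7%) and at 3 of the 38 without (7.89%). All genes stood at 17.7% and 10.6%, cytoplasmic ribosomal protein genes at 27.8% and 30.4%, and mitochondrial ones at 26.4% and 10%. The counts are small, and no difference was tested. The strongest summit lay within 500 bp of another coding start in 7 of the 12 genes (58.3%), against 43.2% of all bound genes. At eIF4EHP, AspRS and GlyRS a coding neighbour started closer to the strongest summit than the named gene did. At eIF6, which had no divergent coding neighbour, the antisense RNA gene did. At AspRS this neighbour was Nmda1, near the inner start, while the divergent gene counted at the outermost start was Lfg. For a peak between divergent starts, binding for one gene and for the other cannot be told apart. The strongest summit lay upstream of its nearest start in 10 of the 12 (83.3%), against 84.5%, at a median distance of 180 bp, against 216 bp.

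Promoters of the class, taken from 250 bases before to 50 after the outermost start, were searched for fixed words on both strands. The DRE word TATCGATA, bound in the fly by Dref, occurred in 22.4% of the 76 genes (27.3% of initiation factors and 15.6% of synthetases), against 9.37% of all protein-coding genes. The E-box CAGCTG was present in 15 of 32 synthetases (46.9%) and in 9.09% of initiation factors, against 17.7%. GAGAG, the core of the GAGA factor site, occurred in 17.1% of the 76, against 29.8%. TATAAA was present in 50% and AATATT in 36.8%, against 45.9% and 30.6%. TTGTTAT occurred in 15.8%, against 11.2%, and GGTCACAC in 13.2%, against 7.71%. Cytoplasmic ribosomal protein genes held TATCGATA in 30.4%, GAGAG in 17.4% and GGTCACAC in 15.2%. The shares of the 76 genes for these words were thus not particular to them. CAGCTG occurred in 9.78% of cytoplasmic ribosomal protein genes. None of the differences in words was tested. CTTTT or CTTTC within 10 bases of the start on the sense strand, a pattern of ribosomal protein promoters, was found in 5 of the 76 (6.58%), against 41.3% of cytoplasmic ribosomal protein genes and 5.36% of all genes. Promoter G and C content had a median of 35.9%, against 37.9%.

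In the same promoter stretch, TATAAA was present in 9 of the 12 bound genes (75%), against 45.1% of all bound genes. TATCGATA, CAGCTG and GAGAG were in 16.7% each, against 10.3%, 22.9% and 37.8%. AATATT was in 33.3%, against 33.1%, TTGTTAT in 8.33%, against 12.8%, and GGTCACAC in 0%, against 8.41%. No difference was tested. At AspRS, 1 of the 9, and at eIF3h, the outermost start had no IDR summit within 500 bp. The stretch searched there was not the bound promoter. Around the summits, the counts over 12 genes were small, and nothing is read from a 0. Within 100 bp of the strongest summit, TATCGATA occurred at 0 of the 12 bound genes, against 3.26% of all bound genes. The E-box was likewise at 0, against 8.87%, TTGTTAT at 0, against 10.9%, and GGTCACAC at 0, against 2.18%. GAGAG occurred at eIF4H1 and ArgRS-m (16.7%), against 21%, and TATAAA and AATATT at 3 genes each (25%), against 42.8% and 33.4%. These are matches of letters in a window and give no site. Of 30 other translation genes, 4 were bound (13.3%), near the 12.5% of all protein-coding genes. They were pAbp, the poly(A)-binding protein, with a signal value of 306, eRF3, a release factor, with 272, crc, the ATF4 transcription factor, with 178, and Thor, the fly 4E-BP, with 124. Thor ranked 6794, 6749 and 7176 in replicates 1, 2 and 3, just outside the best 6485 each time. The 30 included the synthetases that the rule on symbols left out, GluProRS, alpha-PheRS and beta-PheRS, none of which was bound, and GluProRS ranked 2041 and 2893 in replicates 1 and 3.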

How the data were processed

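Peak lists of 3 salr-GFP ChIP-seq replicates, of their pool and of an IDR step were read on dm6. The authors deposited a signal value per peak, a score without a stated scale. It served only for ranks inside each list. Which aligner and caller were used is not given in the sources used here. Depth is unknown, so no counting error is given. Each replicate and pooled list holds 30000 entries, background included, and the 6485 IDR peaks are the top of the pooled list.

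Summits were matched to start sites of Ensembl release 115 (BDGP 6.54) on 6 arms, within 500 bp. Sequences came from the NCBI RefSeq Release 6 genome. Scripts ran in Python 3.11.15 with numpy 2.4.6 and matplotlib 3.10.9, and the matching was tested on simulated data.

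The genes, lists, words and rule for naming genes were chosen with earlier results of these data known. The rule named bound genes, unbound genes with a summit in all 3 replicate lists, those at the thresholds, and neighbours. The 3 libraries form 1 group, so no p-value was computed.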

Additional observations from a re-analysis of the deposited data

How the results depend on the processing

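Of the counts in the IDR list (12 genes, 8 initiation factors, 4 synthetases, 3 of them without and 1 with the suffix -m), summits anywhere in the gene or within 5 kb gave 25 genes, 14 initiation factors and 11 synthetases, 6 without and 5 with the suffix. The 3242 strongest peaks gave 7 genes and 1 synthetase, 1 without and 0 with the suffix. The 1000 strongest peaks gave 3 genes, 2 initiation factors and 1 synthetase, 1 without and 0 with the suffix. The whole pooled list gave 13 initiation factors and 2 synthetases with the suffix, and a window of 1000 bp also gave 2 of these. Leaving out each replicate in turn gave 6 to 7 genes, 5 to 5 initiation factors, 1 to 2 synthetases, 1 to 2 without and 0 to 0 with the suffix. The smaller sets, of 4046, 4102 and 4359 peaks without replicates 1, 2 and 3, follow from the rule itself, because the IDR step was not repeated.

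Against all entries of replicate 1 (16 genes, 10 initiation factors, 2 synthetases with the suffix), its best 6485 gave 10, 6 and 1. Against those of replicate 2 (26, 18 and 2), its best 6485 gave 12, 6 and 0, and its best 10000 gave 17, 10 and 1. For the best 10000 of replicate 2, that was 22.4% of the 76 genes and 22.7% of initiation factors, against 19.6% of all protein-coding genes. Against those of replicate 3 (23, 14 and 3), its best 6485 gave 15, 8 and 1. Its best 10000 gave 9 initiation factors (20.5%), against 19.1% of all protein-coding genes. No paired analysis was possible because the design has 1 group. Depth is unknown, so a gene with no listed summit may still be bound below the reach of the list.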
